A study of Mus musculus with 54 samples.

Results

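Sterol and fatty acid synthesis was followed through 37 genes in group 2 innate lymphoid cells (ILC2s) from mouse small intestine. The rule lists the genes by name and uses no measured value, but the list was drawn up with earlier results of these data known. They cover the mevalonate steps (7 genes), the squalene and sterol steps (11), the SREBP regulators (5), sterol transport and release (4), fatty acid synthesis (3), and desaturation and elongation (7). All 37 were among the 10799 genes listed for cultured cells and passed the filter on low values (at least 1 TPM in at least 4 libraries), as did 10548 genes in all. Of the 37, 35 were among the 10176 genes listed for the genotype experiment, without Scd1 and Fads2, and all 35 were among the 10069 genes tested there. Libraries were made with Smart-seq2, which copies whole transcripts from few cells, and the deposited unit is TPM, a gene's share of all transcripts after correction for its length.

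The culture experiment held 24 libraries of WT small intestinal ILC2s in 6 groups of 4. All 6 groups received IL-2 and IL-7, which sustain ILC2s, and were taken after 4, 48 or 72 h. At each time 1 group also received IL-25, a cytokine of gut epithelium that stimulates ILC2s, and 1 did not. The genotype experiment held 16 libraries, 4 for each pairing of cell type (nILC2 or iILC2) and genotype, labelled CTRL (genotype label WT, Rxrg+/+ in the series text) and KO (Rxrg-/- in the series text). A label of the same libraries carries the abbreviation cKO, so whether the deletion is in all cells or in some is not settled by the labels. Rxrg encodes retinoid X receptor gamma, a nuclear receptor. All 16 carried the labels IL25 and 48h. The meaning of the prefixes n and i is not stated. The mice were C57BL/6, aged 8 to 12 weeks, with sex given as pooled male and female. The labels do not say that libraries of a group came from separate animals or cultures, so the p-values measure only the spread between these libraries, which may be technical.

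Cells make cholesterol from acetyl-CoA by the mevalonate pathway, which also supplies isoprenoids for protein prenylation, and the sterol branch begins when squalene is formed from farnesyl diphosphate. Fatty acids are built from the same acetyl-CoA and are then elongated and desaturated. SREBP transcription factors (genes Srebf1 and Srebf2) switch on most enzymes of both pathways. SCAP carries them out of the endoplasmic reticulum when sterol is low, and INSIG proteins hold them back when sterol is plentiful. Lymphocytes that are activated and grow raise membrane lipid synthesis, and RXR proteins pair with LXR, a sterol-sensing receptor that acts on Srebf1 and on desaturase genes.

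The listed genes summed to 873200 to 898025 TPM per culture library and to 849733 to 886670 TPM per genotype library. TPM keeps no read total, so sequencing depth cannot be read from it, and neither counting intervals nor detection floors are given. Rxrg was 12.17 to 18.42 TPM in nILC2 CTRL and 1.27 to 3.12 TPM in nILC2 KO, and 1.26 to 1.83 TPM in iILC2 CTRL and 0 to 0.48 TPM in iILC2 KO, so KO and CTRL did not overlap within either cell type (two-sided exact permutation p = 0.0286 in each, n = 4 per group, the smallest p this design allows). All 10 ILC2 marker genes were listed in both experiments, with summed levels of 1862 to 5810 TPM in culture and 996 to 2006 TPM in the genotype experiment. Neutrophil (4 genes) and mast cell or basophil (6 genes) markers were not listed, and of the other types only Cd3e and Cd3g of 7 T cell markers (Cd3g alone in the genotype experiment), Cd79b of 5 B cell markers, Cd68 and Xcr1 of 6 macrophage and dendritic cell markers, Epcam and Krt18 of 8 epithelial markers, Pecam1 of 5 stromal markers, and Hba-a1 and Hba-a2 of 6 erythroid markers (Hba-a1 alone in the genotype experiment). Summed RNA of 4 Y-linked genes (Ddx3y, Eif2s3y, Kdm5d and Uty) was 94.8 to 168 TPM in every culture library. In the genotype experiment it stood below 5 TPM in nILC2 CTRL replicate 2, nILC2 KO replicates 1 and 2, iILC2 CTRL replicate 2 and iILC2 KO replicates 1 and 2, and at 93.4 TPM or more in the other 10 libraries. The low values, at most 0.59 TPM, go against a label of pooled male and female for those libraries. They made up 1 of 4 libraries in each CTRL group and 2 of 4 in each KO group, so the genotypes were not balanced in this.

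The promoters of the members that fell most between 4 and 48 h without IL-25 are shown first. These members were picked by that fall, so their shared direction is not a result, and 44.5% of all genes tested also fell. Most of the picked members are textbook SREBP targets, but a part of SREBP in the fall was not tested. RefSeq promoters (GRCm38.p6, the assembly of mm10) were matched for 29 of the 37 members. Of the 12 members that fell at least 2-fold, 8 had exactly 1 annotated start. For 7 of these the 150 bases before the start are printed 5′ to 3′ on the gene's own strand, at chr13:119690201-119690350 (plus) for Hmgcs1, chr13:8885456-8885605 (plus) for Idi1, chr5:4104698-4104847 (minus) for Cyp51, chr8:64733579-64733728 (minus) for Msmo1, chr5:28071262-28071411 (plus) for Insig1, chr11:100528001-100528150 (minus) for Acly and chr11:120824548-120824697 (minus) for Fasn. Capitals mark the motifs searched on both strands: the sterol response element TCACNCCAC, the E-box CACGTG, the NF-Y box CCAAT and the GC box GGGCGG.
Hmgcs1: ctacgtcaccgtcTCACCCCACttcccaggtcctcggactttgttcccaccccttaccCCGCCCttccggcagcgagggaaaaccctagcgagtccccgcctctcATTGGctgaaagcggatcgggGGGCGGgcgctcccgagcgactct
Idi1: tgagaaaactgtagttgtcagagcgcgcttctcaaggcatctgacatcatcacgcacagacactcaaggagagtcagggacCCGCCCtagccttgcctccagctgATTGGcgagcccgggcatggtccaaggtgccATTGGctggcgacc
Cyp51: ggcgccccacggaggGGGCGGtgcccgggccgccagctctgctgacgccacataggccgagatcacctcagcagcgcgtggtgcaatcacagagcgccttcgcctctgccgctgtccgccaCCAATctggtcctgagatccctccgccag
Msmo1: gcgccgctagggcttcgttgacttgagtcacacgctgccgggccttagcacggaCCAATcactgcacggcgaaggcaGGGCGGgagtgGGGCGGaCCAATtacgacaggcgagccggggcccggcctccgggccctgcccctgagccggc
Insig1: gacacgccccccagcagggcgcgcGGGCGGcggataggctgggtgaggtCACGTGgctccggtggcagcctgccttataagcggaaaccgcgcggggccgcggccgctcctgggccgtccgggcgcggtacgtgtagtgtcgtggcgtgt
Acly: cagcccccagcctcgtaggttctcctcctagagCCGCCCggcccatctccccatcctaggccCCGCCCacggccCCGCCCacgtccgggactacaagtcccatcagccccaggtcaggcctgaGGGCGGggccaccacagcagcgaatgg
Fasn: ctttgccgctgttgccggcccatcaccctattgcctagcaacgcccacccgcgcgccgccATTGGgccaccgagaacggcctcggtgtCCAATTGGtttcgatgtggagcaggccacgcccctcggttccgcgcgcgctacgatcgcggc

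In the window of Hmgcs1, the sterol response element read TCACCCCAC and began 137 bases before the start, followed by 2 GC boxes and 1 NF-Y box. Idi1 and Msmo1 each held 2 NF-Y boxes, and the 3 NF-Y boxes of Fasn included a pair on opposite strands that share bases. Insig1 held an E-box, which reads the same on both strands, and Acly held 4 GC boxes. Acaca, the eighth gene, held none of these letters within its 150 bases. Within 250 bases before the start, the sterol response element was found for 1 of the 29 matched members (Hmgcs1) against 1.22% of all 27025 genes with a promoter in the table. E-boxes were found for 6 of 29 members (20.7%, against 6.86% of all genes), NF-Y boxes for 23 (79.3% against 37.5%) and GC boxes for 23 (79.3% against 35.4%). Among the 8698 matched genes that the culture table lists, the shares were 1.23% for the sterol response element, 10.1% for E-boxes, 41.1% for NF-Y boxes and 64.9% for GC boxes. On the gene's own strand alone, the NF-Y box was found for 37.9% of the members and 21.5% of all genes. These matches describe letters and not sites of binding. Only the letters given above were searched, so other forms of the sterol response element would be missed and left unmarked.

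The first comparison asked how the genes changed in culture when IL-25 was absent. Between 4 and 48 h, 22 of the 37 members fell and 4 rose, and 12 fell at least 2-fold (limma, adjusted p under 0.05). Of all 10548 genes tested, 44.5% fell and 19.9% rose. The median log2 change, taken on log2(TPM + 1) throughout, was -0.48 for the members and -0.28 for all genes. After rescaling by the median of ratios, which brings the median of all genes to 0.00698, 16 members fell and 8 rose (median -0.16), and after quantile normalization 19 fell and 7 rose (median -0.25). Fewer cells of a type and less RNA per cell cannot be told apart in these bulk libraries.

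The mevalonate steps fell in 6 of 7 genes, with Pmvk not passing the test (23.3 ± 1.89 TPM at 48 h and 21.9 ± 1.63 at 4 h, mean ± SD, n = 4). Pmvk was called higher at 48 h under both rescalings (log2 change 0.40, adjusted p = 0.0271, and 0.39, adjusted p = 0.0292). Hmgcs1, which makes HMG-CoA, stood at 119, 107, 141 and 119.71 TPM in the 4 libraries at 4 h and at 21.2, 29.4, 31.0 and 20.2 TPM at 48 h (log2 change -2.23, SE 0.17, adjusted p = 3.27e-11). Every library at 48 h lay far below every library at 4 h. Idi1, the isopentenyl diphosphate isomerase, went from 106, 97.3, 119 and 88.5 TPM to 34.01, 40.9, 39.6 and 32.9 TPM (log2 change -1.45, SE 0.10, adjusted p = 4.25e-12), again with no overlap. Fdps, which makes farnesyl diphosphate at the branch point between sterols and other isoprenoids, was 287, 274, 313 and 301 TPM at 4 h and 161, 145, 141 and 137 TPM at 48 h (log2 change -1.005, SE 0.08, adjusted p = 2.23e-11). Its 48 h libraries were all below those of 4 h, but Fdps remained the most abundant of the 7 at both times. Mvd, the mevalonate diphosphate decarboxylase, fell from 69.2 ± 5.58 to 35.3 ± 4.53 TPM, Acat2, the thiolase of the first step, from 36.6 ± 4.59 to 26.2 ± 3.71 TPM and Mvk, mevalonate kinase, from 20.9 ± 3.21 to 15.977 ± 2.05 TPM. The calls of Acat2 and Mvk were lost under both rescalings, and that of Mvk also when any of 4 libraries was left out.

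Of the 11 squalene and sterol genes, 7 fell and 1 rose. Msmo1, a sterol C4-methyl oxidase, had the largest fall of the group, from 164, 158, 171 and 148 TPM at 4 h to 42.4, 47.1, 49.4 and 41.5 TPM at 48 h (log2 change -1.81, SE 0.11, adjusted p = 3.69e-13). Dhcr7, the reductase of the last step to cholesterol, stood at 38.1, 48.02, 41.7 and 45.5 TPM at 4 h and 17.9, 12.6, 11.7 and 13.7 TPM at 48 h (log2 change -1.58, SE 0.15, adjusted p = 1.24e-09). In both genes the 2 times were fully separate. Sqle, squalene epoxidase, was 77.5, 71.2, 85.03 and 73.2 TPM and then 27.8, 29.7, 31.98 and 22.02 TPM (log2 change -1.44, SE 0.10, adjusted p = 2.35e-12), and Cyp51, the lanosterol demethylase, 105, 111, 115 and 113 TPM and then 44.7, 52.8, 51.4 and 49.6 TPM (log2 change -1.15, SE 0.10, adjusted p = 2.11e-10). Both fell in all libraries. Smaller falls were seen for Fdft1, squalene synthase (40.968 to 22.3 TPM), Nsdhl (38.1 to 26.3) and Sc5d (117 to 83.8), and those of Nsdhl and Sc5d were not called under the median of ratios. Ebp, a sterol isomerase, was the gene that rose, from 67.6 ± 2.82 to 82.7 ± 7.13 TPM (log2 change 0.28, adjusted p = 0.0106). Lss, Tm7sf2 and Hsd17b7 did not pass the test, at 34.7, 7.03 and 8.7025 TPM at 4 h and 35.3, 6.72 and 6.17 TPM at 48 h.

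Among the regulators, 3 of 5 fell. Insig1, itself an SREBP target that retains SCAP, was 96.0, 95.7, 94.3 and 83.4 TPM at 4 h and 25.9, 31.9, 26.4 and 30.7 TPM at 48 h (log2 change -1.65, SE 0.09, adjusted p = 1.18e-13). Scap, the SREBP escort, was 38.2, 40.1, 48.4 and 39.8 TPM and then 9.32, 14.7, 15.7 and 17.8 TPM (log2 change -1.50, SE 0.16, adjusted p = 1.38e-08). No library of either gene overlapped between the times. Srebf2, the sterol-directed SREBP gene, fell from 121, 118, 124 and 129 TPM to 56.3, 61.01, 74.1 and 66.4 TPM (log2 change -0.93, SE 0.09, adjusted p = 9.66e-10). Srebf1, which acts more on fatty acid genes, was 65.97 to 98.05 TPM at 4 h and 49.8 to 80.3 TPM at 48 h, overlapping ranges that did not pass the test (adjusted p = 0.209). Insig2 was 15.01 to 31.6 and 11.5 to 25.1 TPM (adjusted p = 0.0663), also overlapping.

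Fatty acid synthesis fell in all 3 genes. Acly, which makes cytosolic acetyl-CoA from citrate, was 129, 141, 151 and 131 TPM at 4 h and 16.7, 31.3, 38.9 and 32.5 TPM at 48 h (log2 change -2.23, SE 0.19, adjusted p = 3.64e-10). Acaca, acetyl-CoA carboxylase, went from 24.4, 22.8, 13.1 and 22.9 TPM to 7.18, 6.42, 9.38 and 4.87 TPM (log2 change -1.45, SE 0.22, adjusted p = 4.47e-06), and Fasn, fatty acid synthase, from 49.98, 59.9, 52.9 and 55.8 TPM to 18.8, 21.3, 23.1 and 23.01 TPM (log2 change -1.31, SE 0.14, adjusted p = 1.09e-08). The 2 times did not overlap for any of these genes. Sterol transport went the other way in 2 of 4 genes: Stard4, a cytosolic sterol carrier, rose from 11.2 ± 3.61 to 19.4 ± 4.36 TPM (log2 change 0.76, adjusted p = 0.00146) and Npc2, the lysosomal cholesterol binder, from 47.1 ± 2.84 to 74.5 ± 3.29 TPM (log2 change 0.65, adjusted p = 4.2e-08). Npc1, its membrane partner, and Lipa, the lysosomal acid lipase, did not pass the test, at 6.87 and 14.9 TPM at 4 h and 5.19 and 18.5 TPM at 48 h, although the Lipa libraries did not overlap and Lipa was called higher after both rescalings. Of the desaturases and elongases, Scd2, Elovl1 and Elovl6 fell and Fads2 rose. Scd2, a stearoyl-CoA desaturase, was 30.2, 31.1, 23.6 and 26.6 TPM at 4 h and 15.1, 16.3, 18.99 and 15.97 TPM at 48 h (log2 change -0.71, SE 0.10, adjusted p = 1.08e-06). The fall of Elovl1, an elongase of long chains, from 198 to 162 TPM turned into a log2 change of 0.04 under the median of ratios, so its direction depends on the scaling. The Elovl6 call was lost under both rescalings and when either of 2 libraries was left out. Elovl5 did not pass (150.06 and 145 TPM) but was higher at 48 h under the median of ratios (log2 change 0.28, adjusted p = 0.000548). Fads1 did not pass either (11.6 and 15.2 TPM) and was called higher at 48 h under both rescalings (log2 change 0.63, adjusted p = 0.000421, and 0.65, adjusted p = 0.000218). Fads2 was 0.62 to 1.37 TPM at 48 h and 0 to 0.21 TPM at 4 h.

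Between 48 and 72 h without IL-25, 0 of 37 members rose and 0 fell, against 0.284% and 0.0948% of all genes (limma). At an unadjusted p under 0.05, 2 members were higher and 3 lower, beside 820 higher and 406 lower of all 10548 genes tested. The smallest adjusted p was that of Cyp51 (0.0702), at 44.7, 52.8, 51.4 and 49.6 TPM at 48 h and 38.6, 42.02, 31.7 and 38.9 TPM at 72 h, which do not overlap. It passed the test under both rescalings (1 member lower in each). The 95% intervals of 27 of 37 members lay within log2 -0.5 and 0.5, and those of all 37 within -1 and 1.

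The second set of comparisons asked what IL-25 did at each time. After 4 h, 13 members were higher with IL-25 and 9 lower, while 13.4% of all genes were higher and 26.9% lower. The median log2 change was 0.11 for the members and -0.12 for all genes. Under the median of ratios, which sets the median of all genes to 0.00340, 15 members were higher and 7 lower, and under quantile normalization 13 and 6. Among the largest rises were Hsd17b7 and Idi1 of sterol synthesis, and among the largest falls Dhcr7 of its last step and Lipa and Npc2 of lysosomal sterol release.

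Idi1 had the largest rise of the mevalonate steps at 4 h, with 192, 176, 187 and 193 TPM with IL-25 against 106, 97.3, 119 and 88.5 TPM without (log2 change 0.86, SE 0.10, adjusted p = 1.67e-07). Every library with IL-25 exceeded every one without. Hmgcs1 was 171, 159, 163 and 176 TPM with IL-25 (log2 change 0.46, SE 0.17, adjusted p = 0.0324), above all 4 control libraries given above, but the call was lost when any of 5 libraries was left out. Fdps was 361, 379, 363 and 415 TPM (log2 change 0.37, SE 0.08, adjusted p = 0.000341), also above all controls. Mvk alone was lower (15.8 ± 2.83 against 20.9 ± 3.21 TPM, adjusted p = 0.0292), which both rescalings removed. Acat2, Pmvk and Mvd did not pass the test, with 36.3, 19.1 and 64.5 TPM with IL-25 and 36.6, 21.9 and 69.2 TPM without.

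In the squalene and sterol steps, 5 of 11 genes were higher and 3 lower at 4 h. Hsd17b7, a sterol ketoreductase, was 16.3, 15.5, 18.1 and 21.7 TPM with IL-25 and 5.03, 6.08, 13.7 and 10.01 TPM without (log2 change 1.0395, SE 0.25, adjusted p = 0.00186), with no overlap. Sqle was 95.7, 102, 108 and 104 TPM with IL-25 (log2 change 0.41, adjusted p = 0.00122) and Cyp51 159, 146, 152 and 163 TPM (log2 change 0.48, adjusted p = 0.000283), each above all controls. Fdft1 was 57.3 ± 1.95 against 40.968 ± 1.73 TPM (adjusted p = 3.88e-05) and Msmo1 196 ± 5.93 against 160.17 ± 10.1 TPM (adjusted p = 0.0345), the latter lost under quantile normalization and when any of 6 libraries was left out. Dhcr7 moved the opposite way, with 20.1, 27.4, 25.2 and 23.3 TPM with IL-25 and 38.1, 48.02, 41.7 and 45.5 TPM without (log2 change -0.83, SE 0.15, adjusted p = 6.83e-05), as did Tm7sf2, a sterol C14 reductase (3.56 ± 1.24 against 7.03 ± 1.62 TPM, adjusted p = 0.00156; under quantile normalization a log2 change of -0.49, adjusted p = 0.0573, in place of -0.84), and Ebp (50.2 ± 5.81 against 67.6 ± 2.82 TPM, adjusted p = 0.000631). All Dhcr7 libraries with IL-25 were below all those without.

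Insig1 was 133, 120.40, 135 and 133 TPM with IL-25 and 96.0, 95.7, 94.3 and 83.4 TPM without at 4 h (log2 change 0.49, SE 0.09, adjusted p = 0.000154), fully separate. Scap was 55.6 ± 3.76 against 41.6 ± 4.61 TPM (adjusted p = 0.0419), a call lost with a pseudocount of 0.1 TPM and when any of 6 libraries was left out. Insig2 was lower (14.6 ± 5.31 against 24.2 ± 7.05 TPM, adjusted p = 0.0208), with overlapping libraries, and was not called after rescaling. Srebf1 and Srebf2 did not pass the test: Srebf1 was 61.01, 47.3, 76.05 and 37.1 TPM with IL-25 and 75.4, 65.97, 98.05 and 71.5 TPM without (adjusted p = 0.057), and Srebf2 was 132 and 123 TPM (adjusted p = 0.345), the latter called under the median of ratios.

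Of the 4 transport genes, 2 were lower with IL-25 at 4 h and 1 was higher. Lipa, which frees cholesterol from esters, was 8.02, 5.67, 9.4 and 10.2 TPM with IL-25 and 15.2, 15.3, 15.7 and 13.3 TPM without (log2 change -0.79, SE 0.15, adjusted p = 0.000111), and Npc2 was 30.9, 29.4, 27.5 and 26.7 TPM and 44.1, 46.4, 47.03 and 50.96 TPM (log2 change -0.70, SE 0.07, adjusted p = 3.74e-08). Neither gene overlapped between the groups. Stard4 was higher (16.3 ± 4.51 against 11.2 ± 3.61 TPM, adjusted p = 0.0384), with overlap, and was lost when any of 5 libraries was left out. Npc1 was 5.17 against 6.87 TPM (adjusted p = 0.12). Fasn was 92.4, 72.0, 76.9 and 82.2 TPM with IL-25 and 49.98, 59.9, 52.9 and 55.8 TPM without (log2 change 0.55, SE 0.14, adjusted p = 0.00225), without overlap, whereas Acly (153 and 138 TPM) and Acaca (25.9 and 20.8 TPM) did not pass the test. Elovl5, an elongase of polyunsaturated fatty acids, was 103, 95.6, 103 and 105 TPM with IL-25 and 153, 150.05, 163 and 133 TPM without (log2 change -0.55, SE 0.09, adjusted p = 2.26e-05), and Scd2 was 17.01, 19.3, 22.4 and 19.8 TPM against the control values above (log2 change -0.48, adjusted p = 0.000378). Both were lower in all libraries with IL-25. Elovl1 was higher (239 ± 21.9 against 198 ± 11.5 TPM, adjusted p = 0.0135), a call lost without replicate 1 with IL-25. Elovl6, Fads1, Fads2 and Scd1 did not pass, and Elovl6 was called higher under both rescalings (log2 change 0.39 and 0.46).

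After 48 h, 11 members were higher with IL-25 and 6 lower, against 21.4% and 28.7% of all genes. The median log2 change was 0.10 for the members and -0.09 for all genes. Under the median of ratios 17 members were higher and 4 lower, and under quantile normalization 16 and 6, so the count of higher members depends on the scaling. The largest log2 changes were those of the desaturases Scd2 and Fads2. Scd2 was 57.99, 57.1, 54.8 and 56.5 TPM with IL-25 and 15.1, 16.3, 18.99 and 15.97 TPM without (log2 change 1.72, SE 0.10, adjusted p = 2.75e-13), a spread within each group far smaller than the distance between them. Fads2, the delta-6 desaturase, was 6.25, 6.26, 5.22 and 4.81 TPM with IL-25 and 0.62, 1.37, 0.81 and 1.32 TPM without (log2 change 1.72, SE 0.18, adjusted p = 1.53e-08). Scd1 was 1.01, 0.99, 1.05 and 0.94 TPM with IL-25 (log2 change 0.95, adjusted p = 1.85e-05), while the libraries without it were listed at 0.09, 0.05, 0 and 0 TPM. Over all culture groups Scd1 reached 1 TPM only in libraries with IL-25, and was at most 0.52 TPM without it. It passed the filter only through IL-25, so its tests of IL-25, here and below, are not independent of that choice. Scd1 is 1 of the 11 members counted as higher. Scd1 and Scd2 are close paralogs, and RSEM, a tool listed in the submitters' processing notes, divides reads that fit both by estimate, so the low Scd1 values are uncertain. Elovl6, which elongates palmitate, was 17.6, 18.2, 17.7 and 17.5 TPM with IL-25 and 8.85, 10.2, 11.6 and 10.6 TPM without (log2 change 0.73, SE 0.13, adjusted p = 2.58e-05), with no overlap. Elovl5 was again lower (110.35, 93.8, 105 and 87.2 TPM against 125, 148, 167 and 142 TPM; log2 change -0.55, SE 0.09, adjusted p = 1.6e-05), as was Fads1, the delta-5 desaturase (11.98, 9.15, 10.8 and 7.36 TPM against 11.2, 17.5, 18.8 and 13.2 TPM; log2 change -0.57, SE 0.16, adjusted p = 0.00523), whose libraries overlapped.

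Of the mevalonate steps, 3 of 7 were higher at 48 h. Fdps was 271, 296, 294 and 294 TPM with IL-25 and 161, 145, 141 and 137 TPM without (log2 change 0.98, SE 0.08, adjusted p = 5.46e-11). Pmvk, phosphomevalonate kinase, was 42.4, 47.1, 49.8 and 53.2 TPM and 22.97, 25.5, 23.6 and 20.9 TPM (log2 change 1.02, SE 0.14, adjusted p = 1.87e-06), and Acat2 was 40.7, 40.7, 41.97 and 50.3 TPM and 25.6, 21.3, 29.7 and 28.3 TPM (log2 change 0.71, SE 0.11, adjusted p = 9.21e-06). None of these 3 genes overlapped between the groups. Hmgcs1, by contrast, was 34.5, 28.4, 28.2 and 18.96 TPM with IL-25 and 21.2, 29.4, 31.0 and 20.2 TPM without (log2 change 0.10, 95% interval -0.25 to 0.45, adjusted p = 0.644), so that libraries of the 2 groups lay among each other. Idi1 was 45.7, 42.8, 43.6 and 38.5 TPM against 34.01, 40.9, 39.6 and 32.9 TPM (adjusted p = 0.0866) and was called only after rescaling or without replicate 2 of the controls. Mvk and Mvd were 16.7 and 36.4 TPM with IL-25 and 15.977 and 35.3 TPM without.

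In the sterol steps, Dhcr7 was now higher with IL-25, at 21.2, 25.1, 24.1 and 19.2 TPM against 17.9, 12.6, 11.7 and 13.7 TPM (log2 change 0.66, SE 0.15, adjusted p = 0.000625), as was Nsdhl, a sterol dehydrogenase (37.7 ± 3.57 against 26.3 ± 2.47 TPM, adjusted p = 0.000262). Neither overlapped. Sc5d was lower (70.9 ± 5.24 against 83.8 ± 1.55 TPM, adjusted p = 0.0166), which was lost under the median of ratios. Sqle, at 34.7, 32.3, 29.7 and 31.7 TPM with IL-25 and 27.8, 29.7, 31.98 and 22.02 TPM without (adjusted p = 0.074), and Cyp51, at 54.2, 37.5, 43.5 and 37.7 TPM and 44.7, 52.8, 51.4 and 49.6 TPM (adjusted p = 0.0779), did not pass the test, both had overlapping libraries, and both were called in some rescaled fits (Sqle higher in both, Cyp51 lower under quantile normalization). Insig1 was higher (37.5, 37.3, 42.7 and 34.03 TPM against 25.9, 31.9, 26.4 and 30.7 TPM; log2 change 0.39, SE 0.09, adjusted p = 0.00131), without overlap, while Srebf1 (65.5 and 62.8 TPM), Srebf2 (64.5 and 64.5), Scap (14.2 and 14.4) and Insig2 (13.3 and 16.9) did not pass. Of the transport genes 3 of 4 were lower: Lipa at 8.65, 9.75, 8.9 and 8.7 TPM against 16.4, 19.6, 22.3 and 15.8 TPM (log2 change -0.95, SE 0.15, adjusted p = 6.63e-06), Npc2 at 62.7 against 74.5 TPM and Npc1 at 3.52 against 5.19 TPM. All Lipa libraries with IL-25 were below all those without. The call of Npc2 was lost under the median of ratios and that of Npc1 under quantile normalization, with the compared groups alone and when any of 3 of 8 libraries was left out. Stard4 did not pass (26.5 and 19.4 TPM) but was called higher under both rescalings (log2 change 0.53 and 0.54), as was Tm7sf2 (0.54 and 0.66). Fasn was higher (30.1 ± 4.31 against 21.5 ± 2.02 TPM, adjusted p = 0.00713), and Acly (27.7 and 29.8 TPM) and Acaca (5.7025 and 6.96 TPM) did not pass.

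After 72 h, 21 members were higher with IL-25 and 3 lower, against 15.3% and 33.2% of all genes. The median log2 change was 0.48 for the members and -0.20 for all genes. Under the median of ratios, where the median of all genes is 0.00653, 26 were higher and 1 lower, and under quantile normalization 24 and 1. Scd2 was 93.03, 95.6, 92.8 and 94.2 TPM with IL-25 and 17.1, 14.8, 15.5 and 18.8 TPM without (log2 change 2.44, SE 0.10, adjusted p = 2.95e-16), the largest change among the members in this comparison. Fads2 was 10.7, 11.7, 8.22 and 10.8 TPM and 1.61, 1.33, 1.09 and 1.31 TPM (log2 change 2.28, SE 0.18, adjusted p = 1.16e-10). Scd1 was 3.05, 1.93, 4.69 and 2.91 TPM with IL-25 (log2 change 2.00, adjusted p = 1.15e-10) and was listed at 0, 0.04, 0 and 0 TPM without it. Scd1 is counted among the 21, although it passed the filter only through libraries with IL-25. Elovl6 was 21.5, 17.9, 16.3 and 18.2 TPM and 8.97, 11.8, 7.76 and 10.4 TPM (log2 change 0.87, SE 0.13, adjusted p = 3.2e-06). In each of these 4 genes the groups were separate. Elovl5 remained lower, with 92.2, 93.6, 105 and 88.5 TPM against 149.97, 153, 172 and 182 TPM (log2 change -0.79, SE 0.09, adjusted p = 8.19e-08). Fads1 (12.9 and 14.1 TPM) and Elovl1 (167 and 172 TPM) did not pass, and Elovl1 was higher under the median of ratios (log2 change 0.19, adjusted p = 0.0472).

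Fdps reached 431, 449, 440.27 and 409.87 TPM with IL-25 at 72 h against 137, 120.38, 111 and 149.88 TPM without (log2 change 1.74, SE 0.08, adjusted p = 8.13e-16), the highest level of any member in any culture group. Pmvk was 53.7, 49.03, 44.6 and 42.9 TPM and 22.7, 23.1, 12.2 and 22.3 TPM (log2 change 1.24, SE 0.14, adjusted p = 1.03e-07), Acat2 43.3, 45.5, 40.3 and 36.3 TPM and 20.9, 20.8, 25.02 and 26.2 TPM (log2 change 0.81, SE 0.11, adjusted p = 1.83e-06), and Idi1 42.9, 47.6, 46.7 and 38.9 TPM and 32.3, 27.5, 29.03 and 36.2 TPM (log2 change 0.48, SE 0.10, adjusted p = 0.000293). These 4 mevalonate genes passed the test and did not overlap. Hmgcs1 was 41.8, 46.2, 46.5 and 29.6 TPM and 25.6, 27.2, 29.3 and 41.2 TPM (log2 change 0.40, adjusted p = 0.0535), with 1 library of each group within the other's range, and passed only after rescaling or without replicate 4 of either group. Mvk and Mvd were 17.5 and 46.2 TPM with IL-25 and 17.3 and 40.032 TPM without, and Mvd was called higher under both rescalings (log2 change 0.43, adjusted p = 0.000669, and 0.34, adjusted p = 0.00463).

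Of the 11 squalene and sterol genes 8 were higher at 72 h. They were Fdft1 (30.99 ± 2.19 against 21.7 ± 1.43 TPM), Sqle (37.2 ± 1.89 against 27.6 ± 2.42), Lss, the lanosterol synthase (56.1 ± 13.6 against 36.972 ± 6.92), Tm7sf2 (12.4 ± 0.892 against 6.89 ± 1.14), Msmo1 (76.7 ± 8.45 against 50.042 ± 10.8), Nsdhl (32.5 ± 2.81 against 24.5 ± 3.18), Hsd17b7 (8.76 ± 1.0434 against 4.2975 ± 1.45) and Dhcr7 (23.977 ± 3.09 against 14.6 ± 2.96). Their log2 changes ran from 0.40 for Nsdhl to 0.93 for Hsd17b7, and the groups overlapped in Lss only. Ebp was lower (83.6 ± 9.26 against 101 ± 5.63 TPM, adjusted p = 0.0172), which both rescalings removed. Cyp51 was 43.7, 43.3, 42.3 and 45.1 TPM with IL-25 and 38.6, 42.02, 31.7 and 38.9 TPM without (log2 change 0.21, adjusted p = 0.0799) and did not pass, although its libraries did not overlap. It was called higher under the median of ratios (0.44, adjusted p = 0.000286) and under quantile normalization (0.35, adjusted p = 0.00204).

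Among the regulators at 72 h, Insig1 was 51.6, 54.4, 52.2 and 57.3 TPM with IL-25 and 29.2, 26.2, 26.7 and 35.4 TPM without (log2 change 0.86, SE 0.09, adjusted p = 4.08e-08), fully separate, and Srebf1 was 93.7, 70.0, 102 and 79.7 TPM and 38.1, 60.1, 63.9 and 64.5 TPM (log2 change 0.62, SE 0.21, adjusted p = 0.0199), a call lost when any of 3 libraries was left out. Srebf2 was 72.2 and 68.6 TPM (adjusted p = 0.485, called higher under the median of ratios at 0.31), Scap 10.9 and 12.98 TPM and Insig2 18.3 and 19.1 TPM. Npc2, lower with IL-25 at 4 and 48 h, was higher at 72 h, with 137, 141, 138 and 162 TPM against 76.9, 92.8, 87.6 and 86.8 TPM (log2 change 0.74, SE 0.07, adjusted p = 8.57e-09). All its libraries with IL-25 exceeded all those without. Stard4 was higher (29.03 ± 5.53 against 17.5 ± 0.625 TPM, adjusted p = 0.00557) and Lipa lower (12.1 ± 1.88 against 17.7 ± 1.31 TPM, adjusted p = 0.00462), the latter not after rescaling. Npc1 was 3.51 and 4.92 TPM (adjusted p = 0.0536) and did not overlap. Of the fatty acid synthesis genes only Fasn passed (28.9 ± 1.25 against 20.1 ± 6.42 TPM, adjusted p = 0.00198), with 1 library without IL-25, replicate 4 at 29.7 TPM, inside the range with it. Acly was 32.5 and 31.4 TPM, and Acaca 4.64 and 5.57 TPM.

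Markers of ILC2s and of other cells moved with IL-25 and with time in culture. The summed ILC2 markers were 4288 to 4518, 3604 to 4169 and 4841 to 5810 TPM with IL-25 at 4, 48 and 72 h. Without it they were 2281 to 2614, 1862 to 2144 and 2104 to 2446 TPM. The summed level of Hba-a1 and Hba-a2 was 5.60 to 9.37, 8.71 to 19.37 and 8.71 to 20.87 TPM with IL-25 at 4, 48 and 72 h, and 60.5 to 82.5, 479 to 553 and 633 to 798 TPM without. Cd3e and Cd3g together were 15.9 to 25.5, 23.95 to 28.97 and 30.8 to 42.2 TPM with IL-25 and 28.9 to 35.3, 82.4 to 129 and 96.0 to 114 TPM without. Cd79b was 12.3 to 19.5, 71.3 to 91.5 and 132 to 157 TPM with IL-25 and 25.2 to 30.1, 43.5 to 49.8 and 37.6 to 47.1 TPM without. Epcam and Krt18 together were 87.7 to 99.8, 35.1 to 40.5 and 51.5 to 61.5 TPM with IL-25 and 171 to 186, 95.9 to 113 and 68.0 to 88.1 TPM without. Pecam1 was 146 to 161, 22.75 to 32.4 and 23.98 to 42.4 TPM with IL-25 and 32.8 to 42.4, 11.9 to 19.5 and 12.0 to 15.5 TPM without, and Cd68 and Xcr1 together were 14.5 to 18.5, 11.5 to 18.2 and 18.9 to 22.45 TPM with it and 10.4 to 12.1, 5.86 to 8.96 and 2.76 to 6.55 TPM without. The part of these in the members' values was not tested.

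**Figure D1:**
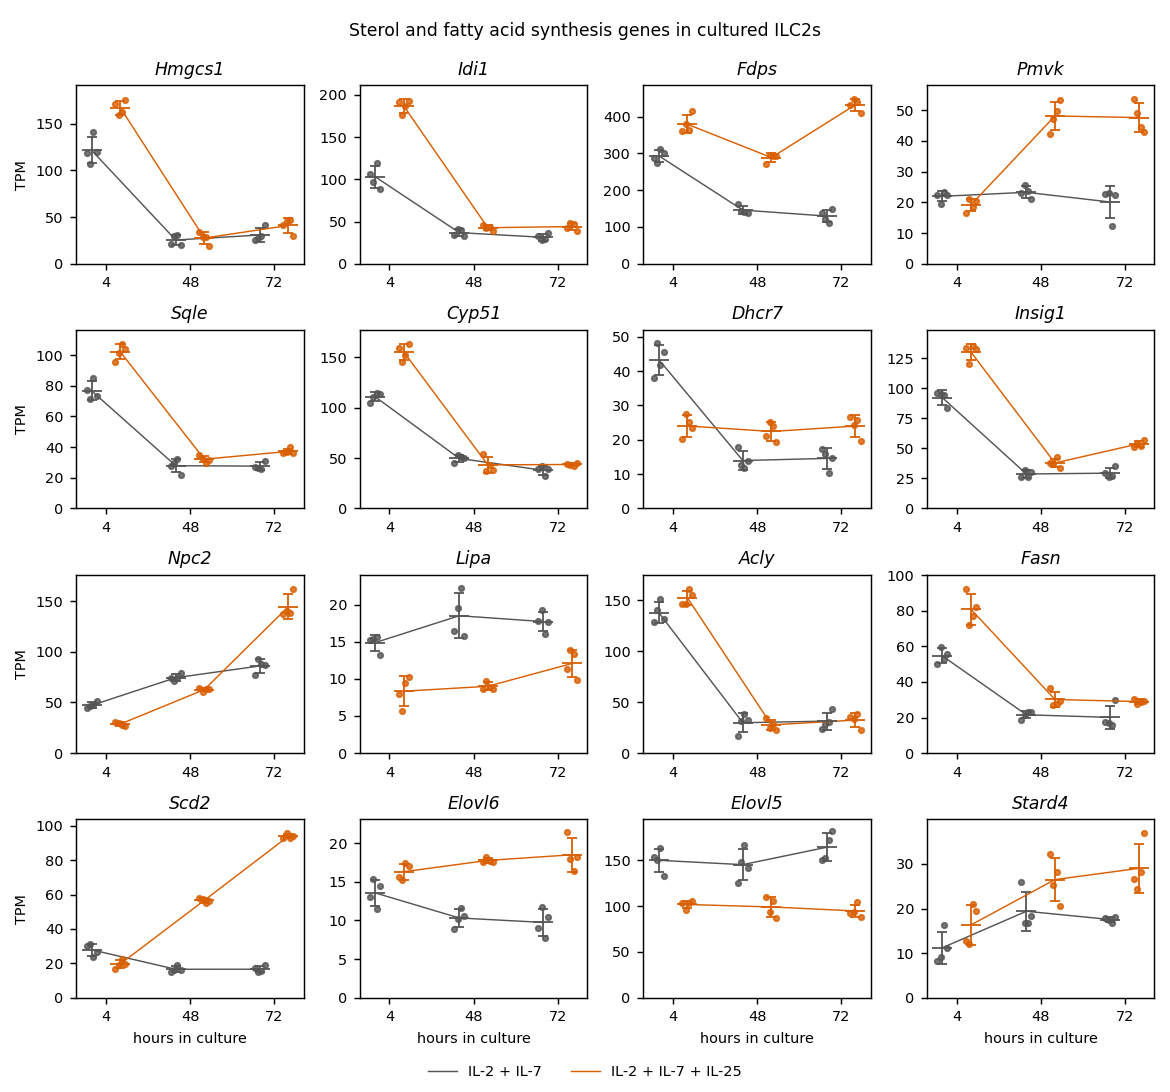
TPM of 16 members (vertical axes, starting at 0) against hours in culture, in cells kept without IL-25 (grey) and with IL-25 (orange). Each point is a library, and bars give the mean and SD of n = 4. Hmgcs1, Sqle, Cyp51, Acly and Fasn are high at 4 h and low at 48 and 72 h in both conditions, whereas Scd2 and Pmvk separate by IL-25 at both later times.

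The change of the IL-25 effect over time was itself tested. From 4 to 48 h the effect became higher for 11 members and lower for 3, against 17.2% and 10.7% of all genes. Of the desaturases and elongases 4 of 7 became higher, with Scd2 going from a log2 effect of -0.48 at 4 h to 1.72 at 48 h (difference 2.2012, adjusted p = 7.82e-12). Dhcr7 turned from -0.83 to 0.66 (difference 1.49, adjusted p = 4.58e-06), Tm7sf2 from -0.84 to 0.44 (difference 1.28, adjusted p = 0.0011), and Pmvk from -0.19 to 1.02 (difference 1.21, adjusted p = 5.15e-05). The effect became lower for Idi1 (0.86 to 0.21, adjusted p of the difference = 0.000919), Fdft1 (0.47 to 0.02, 0.0034) and Cyp51 (0.48 to -0.21, 0.000373). From 48 to 72 h, the effect became higher for 8 members and lower for 0, against 5.22% and 9.5% of all genes. At an unadjusted p under 0.05 the members numbered 10 and 0, beside 953 and 1778 of all 10548 genes tested. The largest differences were those of Scd1 (1.05, adjusted p = 0.0019), Npc2 (0.98, adjusted p = 4.65e-07), Fdps (0.76, adjusted p = 1.77e-05) and Scd2 (0.72, adjusted p = 0.000871). The calls of Cyp51 and Msmo1 in this second test were lost when any of 12 and 9 of the 16 libraries was left out, and that of Elovl6 in the first when any of 13 was. With a pseudocount of 0.1 TPM, the call of Scd1 in the second test (log2 difference 1.75, adjusted p = 0.0675) and that of Fads2 in the first (1.25, adjusted p = 0.188) were lost. Scd1 passed the filter only through libraries with IL-25 at 48 and 72 h, so its calls in both tests are not independent of that filter. Idi1 was called higher in the second test under both rescalings (0.40 and 0.41). The 2 changes share the libraries at 48 h.

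Set side by side across the 6 culture groups, the genes also differed in where their highest level lay. In TPM, which is per length, the highest of the 37 at 4 h without IL-25 were Fdps (294), Elovl1 (198), Msmo1 (160.17), Elovl5 (150.06) and Acly (138), and the lowest were Scd1 and Fads2 (0.207 and 0.105). Msmo1, Elovl5 and Acly overlapped one another (148 to 171, 133 to 163 and 129 to 151 TPM), while Fdps and Elovl1 stood apart from them and from each other. Hmgcs1, with a lower mean than Acly, was 107 to 141 TPM and overlapped Elovl5 and Acly. At 72 h with IL-25 the order was Fdps (432), Elovl1 (167), Npc2 (145), Elovl5 (94.8) and Scd2 (93.9), where Elovl1 and Npc2 overlapped (156 to 175 and 137 to 162 TPM), as did Elovl5 and Scd2 (88.5 to 105 and 92.8 to 95.6 TPM). Srebf1, with a lower mean, was 70.0 to 102 TPM and overlapped both Elovl5 and Scd2, and Ebp (70.5 to 91.8 TPM) overlapped Elovl5. With IL-25, too, Hmgcs1 went from 167 TPM at 4 h to 27.5 at 48 h and 41.04 at 72 h, and Acly from 153 to 27.7 and 32.5, while Fdps went from 379 to 289 and 432. These times were not tested against each other with IL-25.

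**Figure D2:**
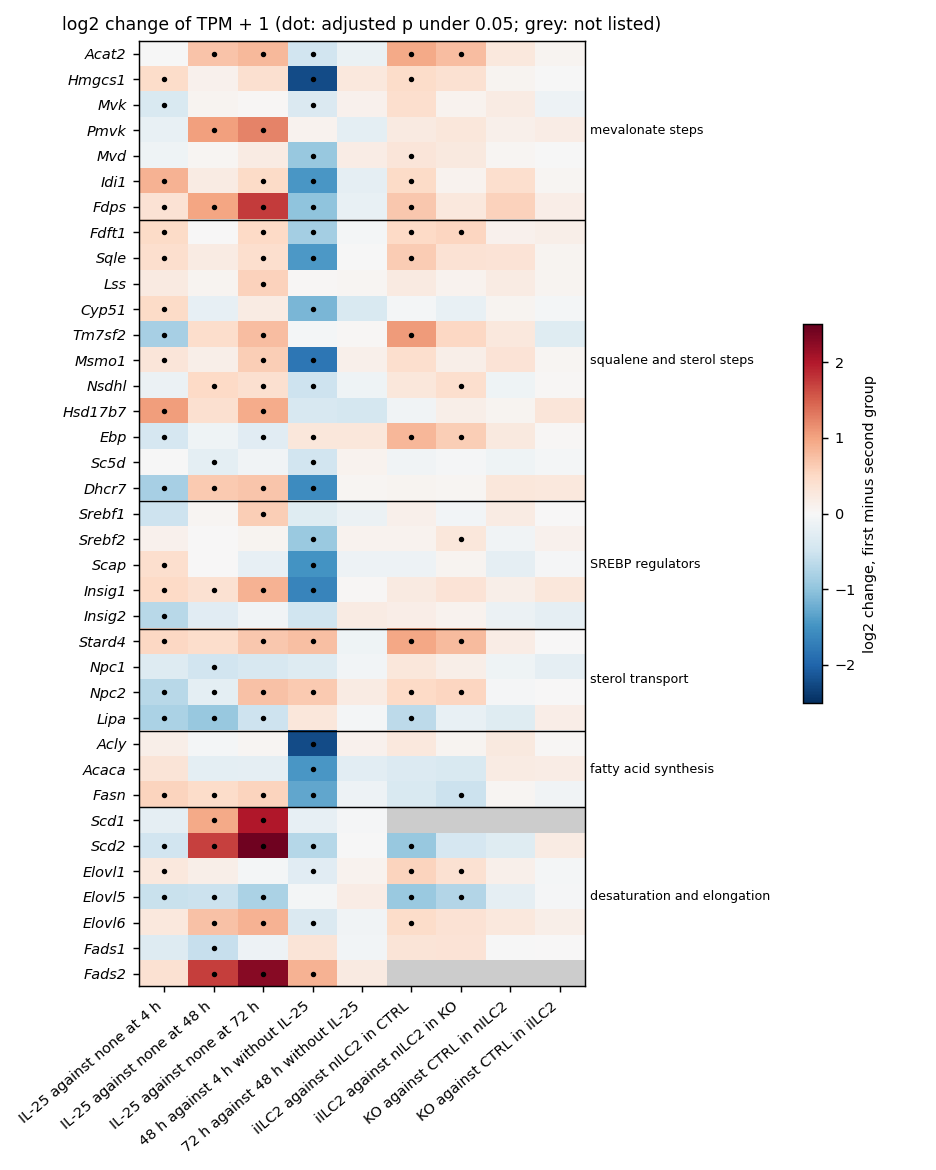
Log2 change of TPM + 1 for each member (rows, grouped by role) in 9 comparisons (columns), red where the first group is higher and blue where it is lower. Dots mark an adjusted p under 0.05, and grey marks genes not listed in the genotype experiment. The column of 48 h against 4 h is mostly blue, the column of IL-25 at 72 h mostly red, and the KO columns hold no dot.

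In the genotype experiment the first question was how nILC2 and iILC2 differed. In CTRL, 13 of 35 members were higher in iILC2 and 3 lower, against 21.9% and 23.6% of all genes. The median log2 change was 0.27 for the members and -0.03 for all genes. In KO, 8 were higher and 2 lower, against 13.8% and 17.6% of all genes, with medians of 0.15 and -0.05. Under the median of ratios the counts were 15 and 3 in CTRL and 8 and 2 in KO. Under quantile normalization they were 18 and 3 in CTRL and 11 and 1 in KO. The summed ILC2 markers were 996 to 1061 TPM in iILC2 CTRL against 1726 to 2006 TPM in nILC2 CTRL. In KO they were 1005 to 1103 TPM against 1342 to 1797 TPM. Cd79b was 238 to 282 TPM in iILC2 CTRL against 117 to 154 TPM in nILC2 CTRL, Cd3g 6.97 to 25.1 against 46.8 to 80.9 TPM, and Epcam and Krt18 together 13.6 to 16.5 against 18.4 to 30.4 TPM. Cd68 and Xcr1 together were 6.89 to 11.2 against 3.89 to 5.58 TPM, Pecam1 49.9 to 61.2 against 82.55 to 91.3 TPM and Hba-a1 16.5 to 27.4 against 22.6 to 43.1 TPM. The part of these in the members' values was not tested.

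The mevalonate steps were higher in iILC2 CTRL in 5 of 7 genes. Acat2 was 34.2, 43.2, 46.2 and 40.6 TPM in iILC2 and 20.4, 20.2, 20.5 and 21.2 TPM in nILC2 (log2 change 0.96, SE 0.13, adjusted p = 6.55e-06), and every iILC2 library exceeded every nILC2 library. Fdps was 128, 116, 132 and 136 TPM and 78.3, 89.9, 87.9 and 66.3 TPM (log2 change 0.67, SE 0.14, adjusted p = 0.000916), and Idi1 29.5, 32.8, 32.5 and 32.1 TPM and 22.6, 22.7, 21.8 and 23.5 TPM (log2 change 0.47, SE 0.13, adjusted p = 0.00774). Neither gene overlapped. Hmgcs1 was 33.7, 27.7, 40.5 and 35.9 TPM and 22.1, 26.99, 29.6 and 20.8 TPM (log2 change 0.46, SE 0.18, adjusted p = 0.0464) and Mvd 31.4 ± 2.56 and 25.4 ± 3.74 TPM (adjusted p = 0.0404). Libraries of both overlapped, and both calls were lost when any of several libraries was left out (5 for Hmgcs1, 6 for Mvd). In KO, Acat2 passed again (37.4, 40.7, 49.1 and 44.6 TPM in iILC2 and 19.5, 26.99, 29.1 and 24.6 TPM in nILC2; log2 change 0.76, SE 0.13, adjusted p = 0.000149), while Fdps was 145 and 123 TPM (adjusted p = 0.187), Idi1 33.1 and 31.4 TPM (adjusted p = 0.623) and Hmgcs1 34.3 and 26.6 TPM (adjusted p = 0.113). With the replicate number as a block, Hmgcs1 passed in KO (log2 change 0.39, adjusted p = 0.0404). Mvk was called higher in CTRL under quantile normalization only (limma, log2 change 0.56, adjusted p = 0.0179).

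Of the sterol steps, Ebp was 109, 103, 89.2 and 95.6 TPM in iILC2 CTRL and 51.97, 71.2, 50.5 and 48.4 TPM in nILC2 CTRL (log2 change 0.84, SE 0.11, adjusted p = 5.99e-06), and 97.4, 96.96, 96.4 and 112 TPM and 70.9, 64.99, 66.9 and 58.2 TPM in KO (log2 change 0.62, SE 0.11, adjusted p = 0.000303). In both genotypes all iILC2 libraries were higher. Tm7sf2 was 9.49 ± 1.98 TPM and 4.13 ± 1.5978 TPM in CTRL (log2 change 1.07, SE 0.23, adjusted p = 0.000746), and Sqle 19.4, 16.7, 22.2 and 26.03 TPM and 11.5, 13.9, 11.7 and 15.3 TPM (log2 change 0.63, SE 0.18, adjusted p = 0.00865). Fdft1 was higher in CTRL (23.8 ± 2.78 against 16.7 ± 3.51 TPM, adjusted p = 0.00912) and in KO (26.2 ± 2.56 against 17.9 ± 1.99 TPM, adjusted p = 0.00951), and Nsdhl in KO (22.7 ± 3.41 against 16.9 ± 4.18 TPM, adjusted p = 0.0371), where Nsdhl overlapped and was lost when any of 5 libraries was left out. In KO, Tm7sf2 (7.51 and 5.01 TPM) and Sqle (21.962 and 17.4 TPM) did not pass. Under quantile normalization, Tm7sf2 was called higher in KO (limma, log2 change 0.70, adjusted p = 0.0246) and Nsdhl in CTRL (0.36, adjusted p = 0.0463). Lss, Cyp51, Hsd17b7, Sc5d and Dhcr7 passed in neither genotype. Msmo1 passed in neither in the fit used here (CTRL 31.1 and 22.7 TPM, log2 change 0.43, adjusted p = 0.0501), but in CTRL it passed with a replicate block (adjusted p = 0.0215), with a term for Y-linked RNA (0.0344), under both rescalings (0.0288 and 0.0292) and with a filter of 5 TPM (0.0482). Low Y-linked RNA was found in the same replicate numbers of nILC2 and iILC2. Cyp51 was 36.2, 27.2, 36.4 and 45.1 TPM in iILC2 CTRL and 44.8, 33.1, 36.1 and 35.5 TPM in nILC2 CTRL.

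None of the 5 regulators passed the test in CTRL. Insig1 was 17.8, 17.9, 18.5 and 17.1 TPM in iILC2 CTRL and 15.2, 16.8, 12.9 and 16.2 TPM in nILC2 CTRL (log2 change 0.22, 95% interval -0.14 to 0.57, adjusted p = 0.321), and its libraries did not overlap. Srebf1 was 34.4 to 56.4 and 27.2 to 59.6 TPM, Insig2 11.97 to 20.4 and 11.8 to 20.2 TPM and Scap 13.8 to 21.4 and 14.9 to 21.02 TPM in the CTRL groups, and each of these overlapped. Srebf2 passed in KO (56.8, 64.1, 59.3 and 63.0 TPM in iILC2 and 54.2, 51.9, 49.7 and 43.9 TPM in nILC2; log2 change 0.28, SE 0.08, adjusted p = 0.0135), without overlap, but not without nILC2 KO replicate 4. In CTRL it was 55.955 and 52.8 TPM (adjusted p = 0.445).

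Stard4 and Npc2 were higher in iILC2 in both genotypes. Stard4 was 24.9, 21.1, 23.9 and 20.6 TPM in iILC2 CTRL and 6.24, 15.1, 13.7 and 11.3 TPM in nILC2 CTRL (log2 change 0.97, SE 0.19, adjusted p = 0.000486), and 22.8 ± 3.08 and 12.8 ± 1.74 TPM in KO (adjusted p = 0.00439). Npc2 was 79.2 ± 5.9965 and 56.2 ± 5.82 TPM in CTRL (adjusted p = 0.000475), and 74.1, 84.7, 80.6 and 79.4 TPM and 61.8, 55.5, 46.4 and 55.6 TPM in KO (log2 change 0.54, SE 0.10, adjusted p = 0.000368). Both genes were separate in both genotypes. Lipa was lower in iILC2 CTRL, at 16.1, 11.9, 15.1 and 12.9 TPM against 20.6, 22.8, 21.8 and 25.4 TPM (log2 change -0.66, SE 0.13, adjusted p = 0.00049), and in KO was 15.7, 16.6, 15.9 and 15.1 TPM against 21.4, 20.2, 16.6 and 14.8 TPM (adjusted p = 0.323). Npc1 was 5.94 to 10.7 and 4.39 to 8.16 TPM in CTRL and did not pass, but was called higher under quantile normalization (limma, log2 change 0.52, adjusted p = 0.0422).

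Fatty acid chain genes were divided between the cell types. Elovl5 was lower in iILC2, with 159, 127, 149 and 139.99 TPM against 272, 292, 281 and 256 TPM in CTRL (log2 change -0.93, SE 0.11, adjusted p = 1.82e-06) and 145, 145, 135 and 141 TPM against 317, 237, 199 and 208 TPM in KO (log2 change -0.74, SE 0.11, adjusted p = 5.55e-05). No iILC2 library reached the lowest nILC2 library. Elovl1 was higher in iILC2, at 165, 151, 157 and 170.49 TPM against 96.1, 107, 119 and 114 TPM in CTRL (log2 change 0.56, SE 0.09, adjusted p = 4.08e-05) and 148, 162, 160.47 and 149 TPM against 109, 124, 137 and 106 TPM in KO (log2 change 0.38, SE 0.09, adjusted p = 0.0025), again without overlap. Scd2 was lower in iILC2 CTRL (8.91, 5.33, 8.42 and 10.01 TPM against 18.6, 15.4, 17.4 and 14.1 TPM; log2 change -0.94, SE 0.22, adjusted p = 0.00181) and did not pass in KO (9.66 and 13.3 TPM, adjusted p = 0.155). Elovl6 was higher in CTRL (11.7 ± 1.95 against 8.17 ± 0.945 TPM, adjusted p = 0.0286), which was lost when any of 4 libraries was left out. Under quantile normalization Elovl6 was called higher in KO too (limma, log2 change 0.49, adjusted p = 0.0299). Fads1 was 15.7 ± 1.97 and 12.3 ± 1.43 TPM in CTRL (adjusted p = 0.0686) and was called higher under quantile normalization in both genotypes (log2 change 0.45 and 0.44). Acly (78.3 ± 9.5956 and 64.6 ± 6.58 TPM, adjusted p = 0.0505, and 0.0191 under the median of ratios) and Acaca (2.78 and 3.88 TPM) did not pass in CTRL, and Fasn was lower in iILC2 in KO only by the test (12.7, 10.3, 14.6 and 12.7 TPM against 12.5, 26.5, 19.3 and 18.4 TPM; log2 change -0.54, SE 0.19, adjusted p = 0.0378), with overlap, and not when any of 6 libraries was left out. In CTRL Fasn was 13.04, 12.3, 13.1 and 15.3 TPM against 16.2, 24.9, 15.99 and 15.8 TPM (log2 change -0.39, adjusted p = 0.102).

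**Figure D3:**
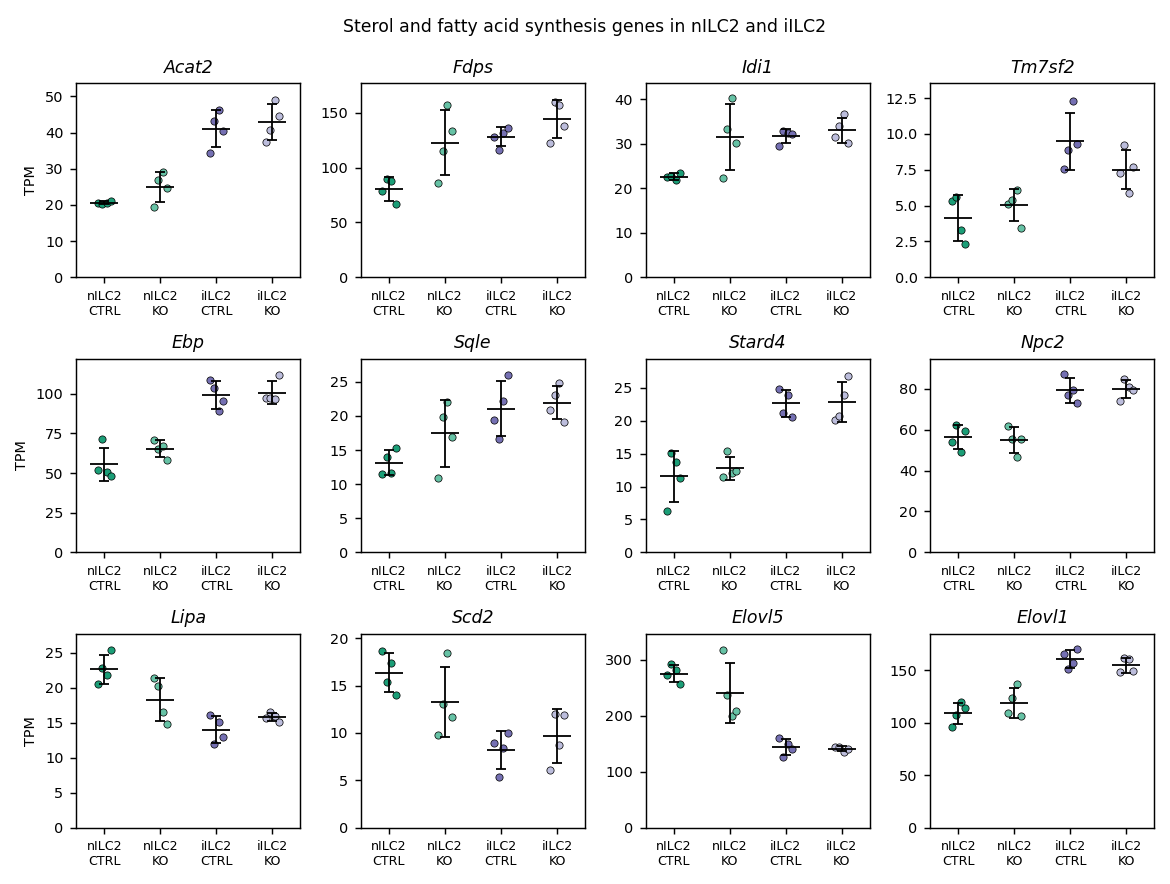
TPM of 12 members (vertical axes, starting at 0) in nILC2 CTRL, nILC2 KO, iILC2 CTRL and iILC2 KO. Each point is a library, and bars give the mean and SD of n = 4. Acat2, Ebp, Stard4, Npc2 and Elovl1 are higher in both iILC2 groups and Elovl5 is lower, while the nILC2 KO libraries of Fdps and Idi1 spread above and into the CTRL range.

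The second question was whether loss of Rxrg changed these genes. In nILC2, 0 of 35 members were called higher and 0 lower in KO (limma), against 0.943% and 0.596% of all genes. At an unadjusted p under 0.05 there were 4 members higher and 1 lower, beside 1122 higher and 825 lower of all 10069 genes tested. In iILC2, 0 members were called in either direction, as were 0% of all genes. No member had an unadjusted p under 0.05 (0 higher and 0 lower), beside 166 higher and 162 lower of all genes tested. Rxrg RNA was 1.26 to 1.83 TPM in iILC2 CTRL, beside 1.27 to 3.12 TPM in nILC2 KO. The iILC2 comparison therefore began from little Rxrg RNA, and its lack of calls cannot show the effect of losing more. The difference of the KO effect between the cell types was called for 0 members and 0% of all genes in either direction. At an unadjusted p under 0.05, 457 of all genes tested were higher and 602 lower, and of the members 1 was higher and 0 lower. That member was Lipa, with log2 effects of 0.17 in iILC2 and -0.31 in nILC2 (adjusted p = 0.389). The 95% intervals of all 35 members lay within log2 -1 and 1 in both cell types, and those of 15 in nILC2 and 24 in iILC2 within -0.5 and 0.5.

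The member nearest the threshold was Fdps in nILC2, with 86.2, 115, 157 and 133 TPM in KO and 78.3, 89.9, 87.9 and 66.3 TPM in CTRL (log2 change 0.58, SE 0.14, adjusted p = 0.0501). KO replicate 1 lay below CTRL replicates 2 and 3, and the other KO libraries lay above all of CTRL. Fdps passed the test under the median of ratios (1 member higher, adjusted p = 0.028), quantile normalization (0.0392) and a term for Y-linked RNA (log2 change 0.62, adjusted p = 0.049). It also passed without nILC2 KO replicate 1 (log2 change 0.74), when Idi1 (0.58) and Sqle (0.55) were called too and Elovl5 was called lower (-0.36), and without nILC2 CTRL replicate 2 (0.63), when Ebp (0.37) was called too. Both of these libraries were among those low in Y-linked RNA, as was KO replicate 2. Among libraries with Y-linked RNA, Fdps was 157 and 133 TPM in KO and 78.3, 87.9 and 66.3 TPM in CTRL, and among those without it 86.2 and 114.7 TPM in KO and 89.9 TPM in CTRL. Epcam and Krt18 together were 12.01 to 16.46 TPM in nILC2 KO and 18.4 to 30.4 TPM in nILC2 CTRL, and the ILC2 markers 1342 to 1797 and 1726 to 2006 TPM, and their part in the Fdps values was not tested. In iILC2, Fdps was 123, 159.98, 157 and 138 TPM in KO and 128, 116, 132 and 136 TPM in CTRL (log2 change 0.17, 95% interval -0.13 to 0.47). In iILC2 only Insig1 had libraries that did not overlap (19.8, 21.8, 24.3 and 21.6 TPM in KO and 17.8, 17.9, 18.5 and 17.1 TPM in CTRL, log2 change 0.28, adjusted p = 1). Of all genes in this comparison, 1.36% had every KO library above CTRL and 1.58% every one below, so 1 of 35 members is near that share.

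The other members named here lay farther from the threshold. Idi1 was 22.2, 33.3, 40.2 and 30.1 TPM in nILC2 KO and 22.6, 22.7, 21.8 and 23.5 TPM in CTRL (log2 change 0.43, adjusted p = 0.0972), where KO replicate 1 lay among the CTRL libraries and the other KO libraries above them. Hmgcs1 was 18.1, 25.8, 36.8 and 25.6 TPM and 22.1, 26.99, 29.6 and 20.8 TPM (log2 change 0.06, 95% interval -0.31 to 0.44), Sqle 10.9, 19.8, 22.1 and 16.9 TPM and 11.5, 13.9, 11.7 and 15.3 TPM (0.35, -0.04 to 0.74) and Insig1 10.8, 18.5, 24.5 and 16.9 TPM and 15.2, 16.8, 12.9 and 16.2 TPM (0.15, -0.21 to 0.51). In these 3 genes KO replicate 1 was the lowest of all 8 libraries. Lipa was 21.4, 20.2, 16.6 and 14.8 TPM and 20.6, 22.8, 21.8 and 25.4 TPM (-0.31, -0.59 to -0.03), Scd2 9.8, 13.1, 18.4 and 11.7 TPM and 18.6, 15.4, 17.4 and 14.1 TPM (-0.31, -0.77 to 0.15), and Srebf1 54.2, 47.6, 46.9 and 50.6 TPM and 59.6, 53.9, 27.2 and 39.1 TPM (0.20, -0.25 to 0.66). All of these overlapped. Of the 35 members, 24 had a log2 change above 0 in nILC2, against 49.4% of all genes, and 23 in iILC2, against 46.6%. The median changes were 0.12 and 0.03, beside -0.00284 and -0.01 for all genes.

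**Figure D4:**
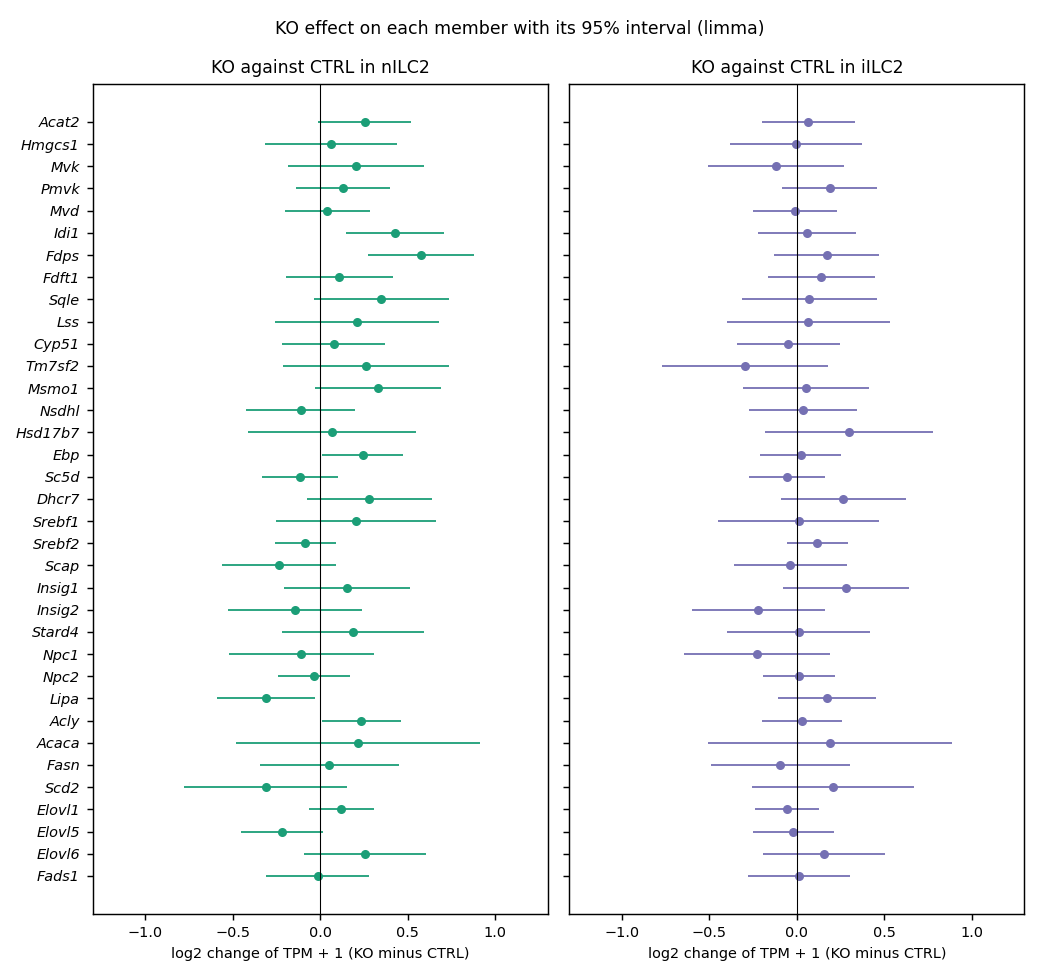
Log2 change of TPM + 1, KO minus CTRL, for each of 35 members in nILC2 (left) and iILC2 (right). Points are estimates from limma, bars are 95% intervals and the line marks no change. Fdps and Idi1 have the nILC2 intervals farthest above 0, and all intervals in iILC2 cross 0.

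Other genes of these pathways were described from lists of 9, 11, 21 and 9 genes, of which all were tested but in the third (15 in culture and 14 in the genotype experiment). The shares of all genes called are those given above: at 48 h against 4 h 44.5% fell, so the lists' counts of 6 of 9, 6 of 11, 7 of 15 and 6 of 9 stand beside that share, and with IL-25 13.4% rose and 26.9% fell at 4 h, 21.4% and 28.7% at 48 h, and 15.3% and 33.2% at 72 h. Of 9 genes that process SREBP or degrade its regulators, 6 fell between 4 and 48 h without IL-25 and 0 rose, with Mbtps1, the site-1 protease, at 16.9 ± 1.2969 against 33.8 ± 4.09 TPM. With IL-25, 1 rose and 0 fell at 4 h, 3 and 2 at 48 h and 1 and 2 at 72 h, Rnf139 being 4.53 against 8.62 TPM at 48 h. Of 11 genes of the isoprenoid branch, 6 fell and 0 rose from 4 to 48 h, and with IL-25 1 rose and 0 fell at 4 h, 3 and 1 at 48 h, and 0 and 4 at 72 h. Coq2, of ubiquinone synthesis, was 2.98 ± 0.666 TPM with IL-25 and 6.13 ± 0.402 TPM without at 72 h, in the same libraries where Fdps was higher with IL-25. Of 15 tested of 21 further fatty acid genes, 7 fell and 1 rose from 4 to 48 h, and with IL-25 3 rose and 2 fell at 4 h, 6 and 1 at 48 h, and 4 and 2 at 72 h. Hacd3, a dehydratase of chain elongation, was higher with IL-25 at each time (567 against 250.31, 185 against 57.5 and 136 against 59.8 TPM), and Acss2, which makes acetyl-CoA from acetate, lower (1.58 against 6.39, 3.16 against 9.78 and 3.31 against 11.2 TPM). Of 9 genes of sterol esterification and transfer, 6 fell and 0 rose from 4 to 48 h. With IL-25 1 rose and 1 fell at 4 h, 0 and 2 at 48 h, and 1 and 2 at 72 h. Soat1, which esterifies cholesterol, was higher with IL-25 at 4 h (46.9 against 26.5 TPM) and at 72 h (67.3 against 31.2 TPM). In iILC2 against nILC2 CTRL, 1 rose and 1 fell, 1 and 2, 2 and 2, and 1 and 2 in the 4 lists (9, 11, 14 and 9 tested), against 21.9% and 23.6% of all genes, among them Gramd1b (8.86 against 24.5 TPM) and Soat2 (6.8 against 2.84 TPM). In the KO comparisons 0 of these genes passed the test in either cell type (limma).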

How the data were processed

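RNA of 40 libraries was measured with Smart-seq2, and 14 chromatin samples were not analysed here. The deposited unit is TPM per gene, in 1 table per experiment. The submitters' processing notes list cutadapt 2.10, STAR 2.7.5c, RSEM 1.3.3 and mm10, with no settings. TPM carries no read total, so depth is unknown.

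The 2 tables were fitted separately, with limma 3.58.1 (R 4.3.3), on log2(TPM + 1), after a filter of at least 1 TPM in at least 4 libraries. The fit had 1 mean per group, a trend in the variance and no replicate block. Benjamini-Hochberg adjustment ran over every gene that passed the filter, and calls needed an adjusted p below 0.05. Fold changes on this scale understate changes of low genes. The fit was tested on simulated data. Values in every library are given for up to 8 called members per comparison with the largest change, a mean of at least 10 TPM and no overlap, and for 18 key members. Lack of overlap was common among all genes. With IL-25, 13.0% lay wholly above and 22.9% wholly below at 4 h, 19.5% and 24.8% at 48 h, and 13.9% and 29.4% at 72 h. At 48 h against 4 h the shares were 16.5% and 38.0%. In iILC2 against nILC2 they were 20.5% and 21.3% in CTRL, and 14.3% and 16.3% in KO. The members and lists were chosen with earlier results of these data known. The labels state no pairing. Same-numbered libraries had an r above 0.1 in every number for nILC2 KO with iILC2 KO only (r 0.19, 0.10, 0.23 and 0.15). In the genotype experiment every r was also positive, but not always above 0.1, for 2 other pairs of groups. These were nILC2 CTRL with iILC2 CTRL (0.25, 0.15, 0.13 and 0.049) and iILC2 CTRL with iILC2 KO (0.14, 0.055, 0.18 and 0.016).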

Additional observations from a re-analysis of the deposited data

Results flagged for a closer look

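Single libraries stood apart from the other 3 of their group in 26 of 362 combinations of gene and group, by Dixon's test at its 95% critical value for 4 samples. Chance alone gives about 1 in 20. The values are given with no explanation. At 4 h without IL-25 this was Insig1 in replicate 4 (83.4 TPM, below the nearest at 94.3) and Acaca in replicate 3 (13.1 TPM, below the nearest at 22.8). At 4 h with IL-25 this was Msmo1 in replicate 4 (205 TPM, above the nearest at 194), Insig2 in replicate 2 (22.6 TPM, above the nearest at 12.9), Npc1 in replicate 3 (5.81 TPM, above the nearest at 5.01) and Acaca in replicate 4 (35.3 TPM, above the nearest at 23.9). At 48 h without IL-25 this was Stard4 in replicate 1 (25.9 TPM, above the nearest at 18.2). At 48 h with IL-25 this was Acat2 in replicate 4 (50.3 TPM, above the nearest at 42.0), Fdps in replicate 1 (271 TPM, below the nearest at 294), Fdft1 in replicate 1 (21.6 TPM, below the nearest at 22.8), Sc5d in replicate 2 (63.1 TPM, below the nearest at 72.7) and Srebf2 in replicate 2 (61.0 TPM, below the nearest at 65.5). At 72 h without IL-25 this was Pmvk in replicate 3 (12.2 TPM, below the nearest at 22.3), Lss in replicate 3 (26.7 TPM, below the nearest at 39.2), Srebf1 in replicate 1 (38.1 TPM, below the nearest at 60.1), Fasn in replicate 4 (29.7 TPM, above the nearest at 17.5), Scd1 in replicate 2 (0.04 TPM, above the nearest at 0) and Elovl1 in replicate 3 (148 TPM, below the nearest at 178). At 72 h with IL-25 this was Fdft1 in replicate 1 (34.2 TPM, above the nearest at 30.2) and Npc2 in replicate 4 (162 TPM, above the nearest at 141). In nILC2 CTRL this was Ebp in replicate 2 (71.2 TPM, above the nearest at 52.0), Acaca in replicate 4 (1.70 TPM, below the nearest at 4.46) and Fasn in replicate 2 (24.9 TPM, above the nearest at 16.2). In nILC2 KO this was Elovl6 in replicate 4 (6.81 TPM, below the nearest at 10.9). In iILC2 KO this was Pmvk in replicate 2 (37.2 TPM, above the nearest at 33.8) and Ebp in replicate 4 (112 TPM, above the nearest at 97.4).

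The IL-25 effect differed between times by an interaction test in limma (adjusted p under 0.05). The difference in log2 effect, 48 h minus 4 h, was called for 14 members: Acat2 0.72, Pmvk 1.21, Idi1 -0.65, Fdps 0.61, Fdft1 -0.46, Cyp51 -0.69, Tm7sf2 1.28, Nsdhl 0.65, Dhcr7 1.49, Npc2 0.46, Scd1 1.17, Scd2 2.201, Elovl6 0.48 and Fads2 1.35. The difference, 72 h minus 48 h, was called for 8 members: Fdps 0.76, Fdft1 0.48, Cyp51 0.42, Msmo1 0.48, Insig1 0.47, Npc2 0.98, Scd1 1.05 and Scd2 0.72. Single left-out libraries ended the call of Elovl6 in the first set (13 of 16 libraries) and those of Cyp51 (12) and Msmo1 (9) in the second. A pseudocount of 0.1 TPM ended the call of Fads2 in the first set (adjusted p = 0.188) and that of Scd1 in the second (adjusted p = 0.0675). Scd1 passed the filter on low values only through libraries with IL-25.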

How the results depend on the processing

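Pseudocounts of 1 and 0.1 TPM, filters, 2 rescalings, the compared groups alone, a replicate block and left-out libraries were tried, and a term for Y-linked RNA was added after seeing the data. Of 7540 alternative values of single members, 7291 counted as the same, 147 lost a call, 99 gained one and 3 reversed. A change of sign counted as reversed only where the value was called in either fit. Values called in neither fit counted as the same, whatever their sign. The reversed values, all under the median of ratios, were Elovl1 with IL-25 at 72 h (0.19), and Elovl1 (0.043) and Elovl5 (0.28) at 48 h against 4 h. Under the median of ratios, members called higher numbered 17 with IL-25 at 48 h, 8 at 48 h against 4 h and 1 in nILC2 KO, and members called lower 1 with IL-25 at 72 h and 1 at 72 h against 48 h. Under quantile normalization, members called higher numbered 7 at 48 h against 4 h and 1 in nILC2 KO, and members called lower 1 with IL-25 at 72 h, 1 at 72 h against 48 h and 1 in iILC2 against nILC2 KO. The last count was also 1 with the compared groups alone. The Y-linked term gave 1 member called higher in nILC2 KO. Leaving out 1 library gave 0 to 3 called higher and 0 to 1 called lower in nILC2 KO, and 1 to 2 called lower in iILC2 against nILC2 KO. The cause was not tested.

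The replicate block joins libraries by their number alone, also across CTRL and KO, and no label states such a pairing. In nILC2, replicate 1 was high in Y-linked RNA in CTRL and low in KO. With this limit, the replicate block called 1 member higher in nILC2 KO (Fdps, adjusted p = 0.0224). In limma it also added the calls of Srebf1 with IL-25 at 4 h (adjusted p = 0.0224), Mvk in the change of the effect from 4 to 48 h (0.0477), Msmo1 in iILC2 against nILC2 CTRL (0.0215) and Hmgcs1 in KO (0.0404). It ended those of Elovl6 in the change from 4 to 48 h (0.0506) and of Cyp51 (0.057) and Msmo1 (0.0509) in the change from 48 to 72 h, and it changed no other member's call. The share of members with an NF-Y box was 37.9% on the gene's own strand alone. Unknown depth limits what can be said of members near 0, such as Scd1.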
